A study of Homo sapiens with 54 samples.

Results

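This account concerns the AP-1 family of transcription factors, represented by FOS, FOSB, FOSL1, FOSL2, JUN, JUNB, JUND and ATF3, in a human lung cancer cell line exposed to tobacco products and to cancer therapy. The members were chosen by name, and each was read from the 1 row of the expression table whose annotation gave that symbol and no other, so 8 of the 18417 genes measured are described. RNA came from NCI-H460, an established line grown from a large cell carcinoma of the lung, cultured without serum before treatment. Every group therefore shares serum withdrawal, and each stands for this 1 line. The 54 one-colour arrays, each with its own RNA sample, formed 18 groups of 3 that the labels call biological replicates. Cells first received nicotine (5 uM), cigarette smoke extract (dosed to 5 uM of nicotine) or neither. The therapy step was 6 Gy of radiation from a cesium source, 1 uM cisplatin or neither, and RNA was taken at 2 h or 24 h. Where a therapy followed nicotine or smoke extract, it came 2 h later. The 9 conditions at each harvest time were thus untreated, nicotine, smoke extract, radiation, radiation with nicotine, radiation with smoke extract, cisplatin, cisplatin with nicotine and cisplatin with smoke extract. Harvest times count from the therapy step, so cells given nicotine or smoke extract before a therapy had been exposed for longer than the named time. For nicotine or smoke extract without a therapy the labels name only the harvest time.

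AP-1 is a dimer of basic leucine zipper proteins. A FOS-type protein (FOS, FOSB, FOSL1 or FOSL2) cannot pair with itself and binds DNA with a JUN-type partner (JUN, JUNB or JUND), while JUN proteins can also pair with each other or with ATF proteins such as ATF3. The dimers bind the TRE, a short palindrome with the letters TGANTCA, or the related CRE, with the letters TGACNTCA. FOS, FOSB, JUN and JUNB are classic immediate early genes, switched on within minutes by growth factors and stress through MAP kinases, serum response factor and CREB, and their messages are short-lived. FOSL1 and FOSL2 are usually induced later and last longer, JUND is made at a steady level in many cells, and ATF3 is a stress-induced factor that often represses its targets. In lung epithelium and lung tumours, FOSL1 and FOSL2 are known for ties to invasion and matrix remodelling.

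The promoter windows are shown because several of the members, though not all, are known to carry CRE-type sites close to their starts. FOSL2, FOS and FOSB carry the same core at almost the same place, and FOSL2 gave a different array pattern from FOS and FOSB. Any link between the core and the array patterns was not tested. RefSeq promoter windows on GRCh38.p14 were found for 7 of the 8 members, with 2 starts for ATF3, and the 250 bases before each start were searched on both strands. FOSL1 had no entry. Capitals mark the TGACGT core of a CRE or a TGACNTCA match, and each line runs 5′ to 3′ on the gene's own strand and ends at the base before the start.
FOSL2: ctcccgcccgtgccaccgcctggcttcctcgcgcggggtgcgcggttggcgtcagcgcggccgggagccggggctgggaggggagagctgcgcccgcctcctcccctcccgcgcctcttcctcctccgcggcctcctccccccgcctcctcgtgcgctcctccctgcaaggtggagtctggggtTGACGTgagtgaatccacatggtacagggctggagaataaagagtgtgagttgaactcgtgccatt
FOS: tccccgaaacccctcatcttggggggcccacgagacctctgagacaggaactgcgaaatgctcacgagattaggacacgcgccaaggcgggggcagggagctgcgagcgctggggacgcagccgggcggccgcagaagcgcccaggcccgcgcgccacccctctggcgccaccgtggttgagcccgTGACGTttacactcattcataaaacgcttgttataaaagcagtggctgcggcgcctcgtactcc
FOSB: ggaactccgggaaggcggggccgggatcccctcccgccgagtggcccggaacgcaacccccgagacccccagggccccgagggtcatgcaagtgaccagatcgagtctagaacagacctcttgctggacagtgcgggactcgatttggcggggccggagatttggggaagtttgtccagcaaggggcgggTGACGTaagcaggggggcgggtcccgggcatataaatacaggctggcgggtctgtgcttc
JUN: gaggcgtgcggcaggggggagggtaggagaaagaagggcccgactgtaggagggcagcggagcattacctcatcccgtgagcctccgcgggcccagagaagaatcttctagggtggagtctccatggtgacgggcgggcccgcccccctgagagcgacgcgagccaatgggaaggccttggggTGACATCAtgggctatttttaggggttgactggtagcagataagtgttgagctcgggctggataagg
ATF3: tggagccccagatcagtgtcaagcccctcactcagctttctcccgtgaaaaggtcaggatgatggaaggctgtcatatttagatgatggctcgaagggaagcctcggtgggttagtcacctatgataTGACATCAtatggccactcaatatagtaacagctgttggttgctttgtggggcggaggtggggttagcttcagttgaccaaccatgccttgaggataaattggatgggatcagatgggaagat
These windows lie at chr2:28392608-28392857 (plus strand) for FOSL2, chr14:75278578-75278827 (plus) for FOS, chr19:45467746-45467995 (plus) for FOSB, chr1:58784048-58784297 (minus) for JUN and chr1:212565157-212565406 (plus) for the first start of ATF3. The core TGACGT began at base -66 from the start in FOSL2, at -64 in FOS and at -60 in FOSB. JUN held TGACATCA from -67 to -60, a variant known to be bound by dimers of JUN and ATF2, and ATF3 held the same letters from -123 to -116. JUND held a full TGACGTCA from -200 to -193, which contains the core on both strands, and a further core from -87 to -82. Neither motif was in the windows of JUNB (chr19:12791236-12791485) or of the second start of ATF3. Of 35114 RefSeq promoter windows of this length, 7.1% held TGACGT and 6.87% held TGACNTCA. The TRE (TGANTCA, in 6.57% of all windows) and the CArG box bound by serum response factor (in 1.16%) were not in any of the 8 windows. The letters GCGTG, the core bound by the aryl hydrocarbon receptor that smoke activates, were in the windows of FOS, JUN and JUNB and in 32.2% of all windows. Sequence outside these 250 bases was not searched, so a site missing here may lie elsewhere. These matches describe letters and not bound sites.

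Values are those deposited, taken as log2, and levels are given as the mean ± SD of 3 arrays. Array medians ran from 6.43 to 6.63, and correlations between arrays of a group over all rows from 0.979 to 0.996. No detection calls were used, so genes of families not expected in these cells (olfactory and taste receptors and hair keratin-associated proteins, 453 genes, called silent families here) served as a guide to low signal. Their mean levels had a 95th percentile of 6.76. The means over 54 arrays of JUN (5.93), ATF3 (6.01) and FOSB (6.69) lay below it, so changes in these 3 may be understated. Those of FOS (7.55), FOSL1 (8.36), FOSL2 (8.48), JUNB (8.63) and JUND (8.62) lay above it. On 4 arrays the silent families departed by more than 0.15 from their group's median, namely replicate 3 of cisplatin and of cisplatin with smoke extract at 2 h, replicate 2 of nicotine at 24 h, and replicate 3 of radiation with smoke extract at 24 h. Keratins KRT8, KRT18 and KRT19 had mean levels from 11.26 to 11.96, whereas the epithelial markers EPCAM (5.28) and CDH1 (5.07) were within the range of the silent families. The 4 leukocyte markers measured had means from 3.40 to 6.44 and the 5 endothelial ones from 4.80 to 5.81, also below their 95th percentile. Of 5 fibroblast markers, COL1A1 (7.56) and COL3A1 (7.22) lay above the 95th percentile of the silent families, while DCN was at 3.12. A change in level cannot be divided here between fewer cells that make a message and less message in each cell.

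FOSL2, FOSL1, ATF3 and JUNB changed with smoke extract, a therapy or both, while FOS and JUN passed the test in no comparison of 2 conditions. A gene is called here where its adjusted p is under 0.05 in limma (Benjamini-Hochberg over 18417 genes), and each background given beside a count is the percent of all genes called in the same comparison. An F test over all 18 groups found a difference for 7 of the 8 members, against 60.1% of all genes, the exception being JUN (adjusted p = 0.201). FOSL2 had the largest F of the family (18.3, adjusted p = 1.63e-13), above that of 94.3% of genes, followed by FOSL1 (7.19), JUNB (5.17) and ATF3 (4.58). The calls of FOS and JUND rested on replicate 1 of radiation with nicotine at 2 h, without which their adjusted p-values were 0.0633 and 0.0593, and JUND was also lost with quantile normalization (0.0648). Over 34 pairwise and combined comparisons, FOSL2 was called in 9, FOSL1 in 8, ATF3 in 5, JUNB in 4, and FOSB and JUND in 1 each. FOS and JUN, the founding members, were called in 0 of 34, with 4 and 1 at an unadjusted p under 0.05. The 34 comparisons share arrays, and the counts describe how often each member passed.

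**Figure D1:**
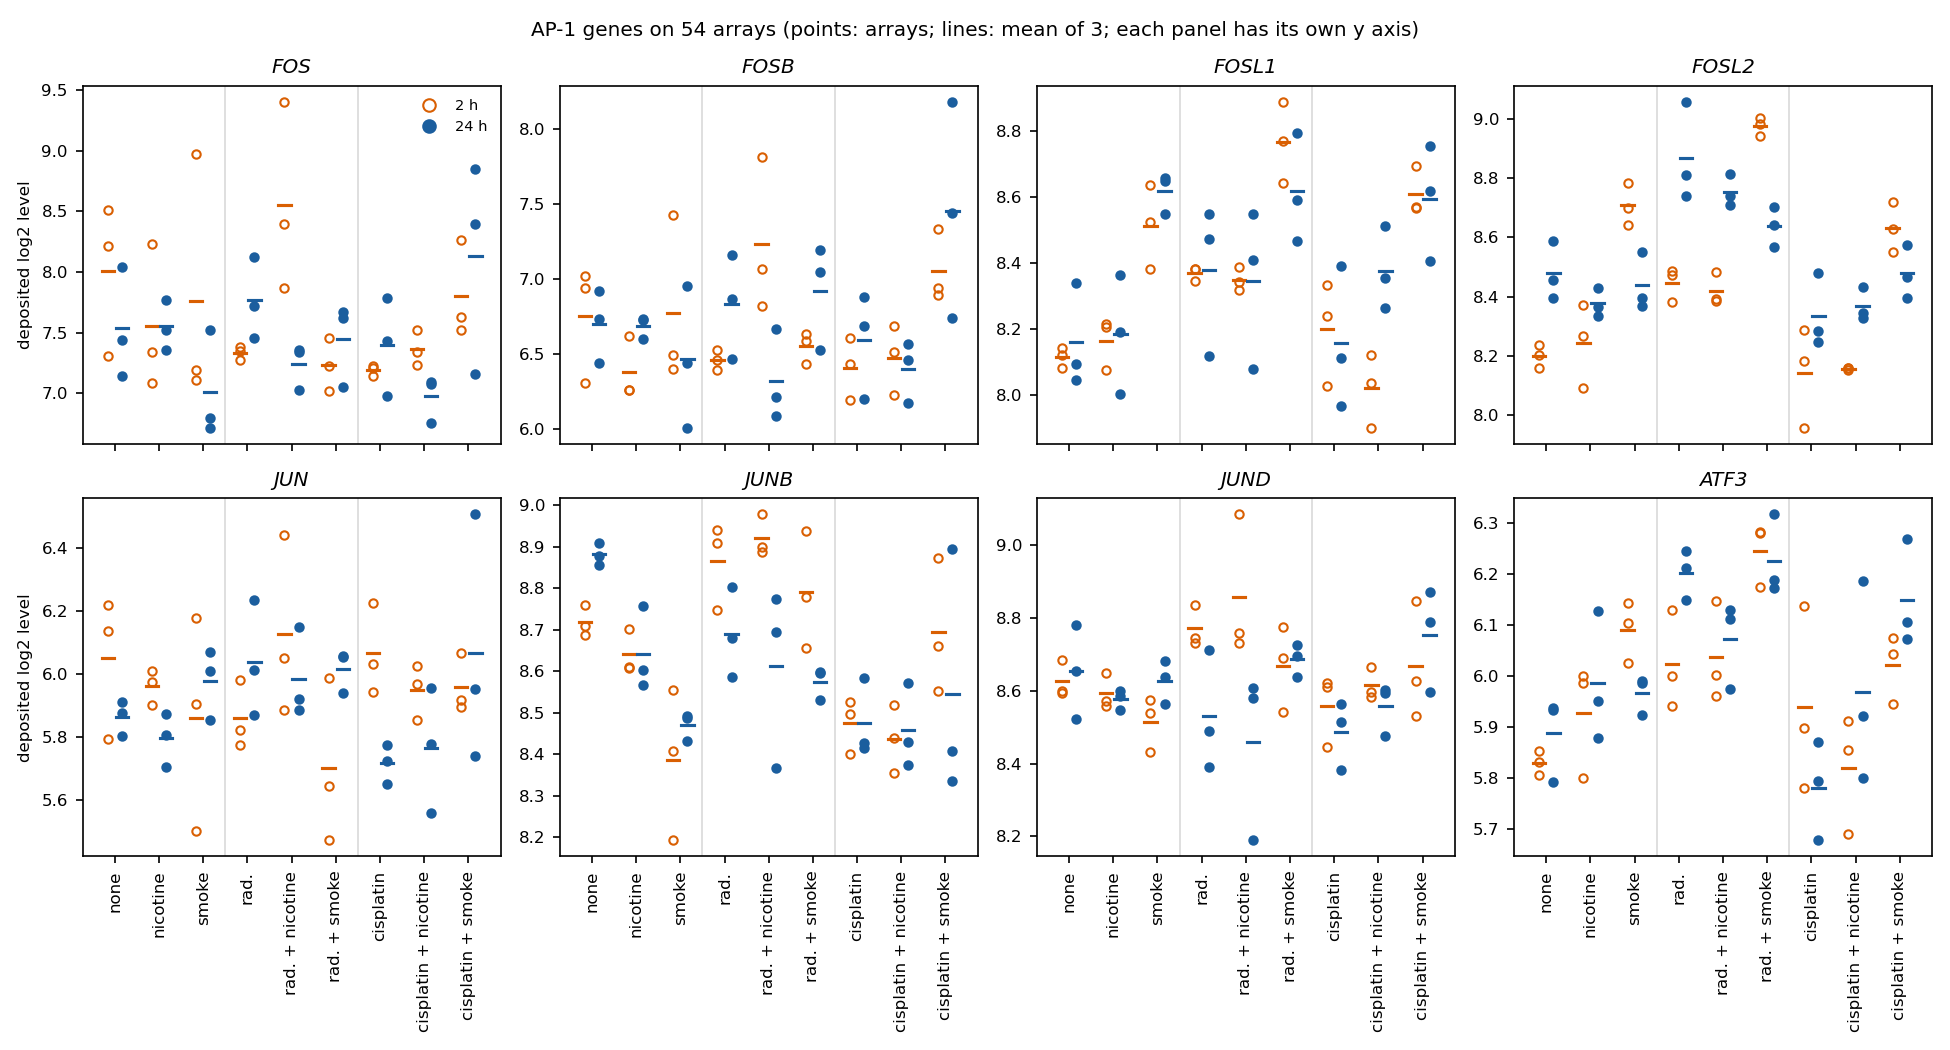
Log2 level of each AP-1 gene on every array, by condition (x axis) and harvest time (open 2 h, filled 24 h), with a line at the mean of 3. FOSL2 is high with smoke extract at 2 h (9 arrays from 8.55 to 9.01) and with radiation at 24 h, while FOS and FOSB scatter widely within groups.

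FOSL2 encodes Fra-2, a FOS-type protein that lacks the strong activation domain of FOS. Smoke extract raised it at 2 h in cells given no therapy, from 8.20, 8.24 and 8.16 on the untreated arrays to 8.64, 8.70 and 8.79. The groups did not overlap (as for 6.9% of all genes in this direction), and the log2 change was 0.51 ± 0.08 (SE of the limma fit, used for every change below), a 1.42-fold rise with an adjusted p of 1.02e-05. Of all genes, 3.77% were called in this comparison, 1.74% as higher. In irradiated cells FOSL2 went from 8.47, 8.49 and 8.38 to 9.01, 8.94 and 8.98 with smoke extract, a change of 0.53 ± 0.08 (adjusted p = 4.83e-06; background 2.66%). In cisplatin-treated cells it went from 8.18, 7.96 and 8.29 to 8.72, 8.55 and 8.63, a change of 0.49 ± 0.08 (adjusted p = 1.7e-05; background 5.46%). These 3 comparisons use separate arrays. The differences between the therapies were small, at 0.02 ± 0.11 for radiation (95% CI -0.21 to 0.25) and -0.02 ± 0.11 for cisplatin (95% CI -0.25 to 0.21). The 2 h of pretreatment is labelled only for cells given a therapy, so therapy and exposure length cannot be told apart here. The interaction of smoke extract with radiation at 2 h was called for 0 members, with 0 at an unadjusted p under 0.05 (background 0%). The 9 arrays with smoke extract at 2 h ran from 8.55 to 9.01, with a median of 8.72, all above the 18 arrays without it, which ran from 7.96 to 8.49, with a median of 8.25. The mean effect over the 3 therapies was 0.51 ± 0.05 (adjusted p = 2.42e-12; background 9.28%). Against nicotine at the matched nicotine dose, smoke extract gave 0.47 ± 0.08 more FOSL2 (adjusted p = 5.47e-05; background 3.39%), whereas nicotine itself gave 0.04 ± 0.08. Every one of these 2 h calls held when any 1 array was left out.

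At 24 h no smoke extract effect on FOSL2 was called. The level was 8.39, 8.46 and 8.59 untreated and 8.55, 8.37 and 8.39 with smoke extract, overlapping groups with a change of -0.04 ± 0.08 (95% CI -0.20 to 0.12). The difference between the 24 h and 2 h effects was itself tested and was -0.55 ± 0.11 (adjusted p = 0.00187; background 6.29%), and it was called without any 1 of its 12 arrays. FOSL2 was the only member called there. In irradiated cells at 24 h it was 8.81, 9.06 and 8.74 without and 8.70, 8.64 and 8.57 with smoke extract, groups that did not overlap (9.77% of genes in this direction), with a change of -0.23 ± 0.08 that missed the threshold (adjusted p = 0.0641; 0.0241 without replicate 3 of radiation at 24 h, 0.0449 with the silent-family covariate and 0.0376 among genes above the median level). In cisplatin-treated cells at 24 h the change was 0.14 ± 0.08 (adjusted p = 0.161; 0.0452 without replicate 2 of cisplatin and 0.0459 with quantile normalization). In untreated cells FOSL2 was 8.20 ± 0.04 at 2 h and 8.48 ± 0.10 at 24 h, a difference of 0.28 ± 0.08 (adjusted p = 0.0506). FOSL2 was the 1 member there at an unadjusted p under 0.05, with 0 called and a background of 1.92%. That difference was called under 5 of the other settings tried, with adjusted p-values from 0.00487 to 0.0379.

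The order of the 18 mean levels of FOSL2 was as follows. It was highest with radiation and smoke extract at 2 h (8.98), then with radiation (8.87) and radiation with nicotine (8.76) at 24 h, smoke extract at 2 h (8.71), radiation with smoke extract at 24 h (8.64) and cisplatin with smoke extract at 2 h (8.63). The middle held untreated cells and cisplatin with smoke extract at 24 h (both 8.48), radiation at 2 h (8.45), smoke extract at 24 h (8.44), radiation with nicotine at 2 h (8.42), nicotine at 24 h (8.38) and cisplatin with nicotine at 24 h (8.37). It was lowest with cisplatin at 24 h (8.34), nicotine at 2 h (8.24), untreated at 2 h (8.20), cisplatin with nicotine at 2 h (8.16) and cisplatin at 2 h (8.14). The SDs ran from 0.0044 to 0.17. Neighbours in this order had overlapping arrays in all 17 pairs, and the same was true of the 17 neighbouring pairs of each other member.

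FOSL1 encodes Fra-1, a FOS-type protein often raised in cells with active RAS and ERK signalling. Smoke extract raised it at both times. At 2 h it was 8.08, 8.14 and 8.12 untreated and 8.52, 8.38 and 8.64 with smoke extract, groups that did not overlap, with a change of 0.40 ± 0.11, or 1.32-fold (adjusted p = 0.0327). At 24 h it was 8.34, 8.05 and 8.09 untreated and 8.55, 8.65 and 8.66 with smoke extract, again without overlap (19% of genes in this direction), with a change of 0.46 ± 0.11, or 1.37-fold (adjusted p = 0.00349; background 16.1%). The change at 24 h exceeded that at 2 h by only 0.06 ± 0.16 (95% CI -0.26 to 0.39, adjusted p = 0.92). In irradiated cells at 2 h FOSL1 went from 8.38, 8.34 and 8.38 to 8.77, 8.64 and 8.89, again without overlap (7.32% of genes in this direction), a change of 0.40 ± 0.11 (adjusted p = 0.042). In cisplatin-treated cells at 2 h it went from 8.24, 8.33 and 8.03 to 8.57, 8.57 and 8.70, a change of 0.41 ± 0.11 (adjusted p = 0.0187). Of the 9 arrays with smoke extract at 2 h, 8 lay above all 18 without it. The mean effect over the therapies was 0.40 ± 0.07 at 2 h (adjusted p = 8.13e-06) and 0.38 ± 0.07 at 24 h (adjusted p = 1.32e-05; background 27.7%), and both held without any 1 array.

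The FOSL1 calls inside a single therapy were less secure than those of the means. Without therapy at 2 h the call was lost without replicate 1, 2 or 3 of untreated cells (adjusted p = 0.13, 0.0853 and 0.0922) or replicate 1 or 3 of smoke extract (0.104 and 0.175). In irradiated cells at 2 h it was lost without replicate 1, 2 or 3 of radiation (0.122, 0.168 and 0.0909) or replicate 1 or 3 of radiation with smoke extract (0.119 and 0.288). In cisplatin-treated cells at 2 h it was lost without replicate 3 of cisplatin (0.158), replicate 3 of cisplatin with smoke extract (0.1) or the 4 arrays that stand apart (0.214), where the change was 0.28. The direction stayed upward in each. At 24 h FOSL1 rose by 0.44 ± 0.11 with smoke extract in cisplatin-treated cells (adjusted p = 0.00497; 0.0816 without replicate 3 of cisplatin; background 28.6%) and differed by 0.24 ± 0.11 in irradiated cells (adjusted p = 0.277). Smoke extract added to radiation at 24 h called 0 members, with 2 (FOSL1 and FOSL2) at an unadjusted p under 0.05, and 8.23% of all genes. Against nicotine at 24 h, smoke extract gave 0.43 ± 0.11 more FOSL1 (adjusted p = 0.00744; 0.0903 without replicate 1 of nicotine; background 12.8%), and at 2 h 0.35 ± 0.11 more (adjusted p = 0.0908).

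**Figure D2:**
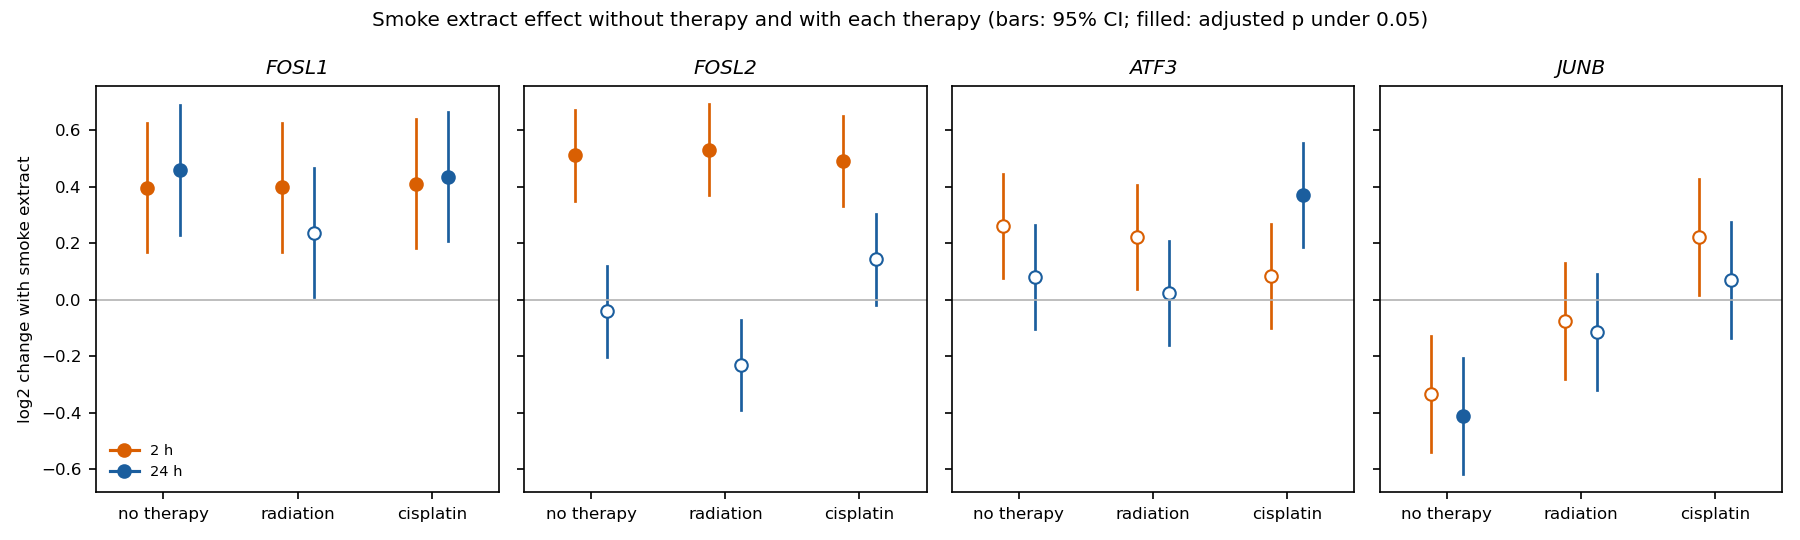
Log2 change with smoke extract (y axis, bars 95% CI, filled where called) in cells given no therapy, radiation or cisplatin, at 2 h and 24 h, for FOSL1, FOSL2, ATF3 and JUNB. The FOSL2 change is 0.49 to 0.53 in each therapy at 2 h and -0.23 (radiation) to 0.14 (cisplatin) at 24 h, where none is called. FOSL1 is called as higher at both times except in irradiated cells at 24 h. JUNB runs from -0.33 without therapy to 0.22 with cisplatin at 2 h.

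ATF3, a stress-induced factor that pairs with JUN proteins or with itself, gave smaller changes of the same direction from a level within the range of the silent families. With smoke extract at 2 h it was 6.10, 6.14 and 6.03 against 5.81, 5.83 and 5.85 untreated, groups that did not overlap (6.9% of genes in this direction). The change of 0.26 ± 0.09 missed the threshold (adjusted p = 0.12; 0.0397 with the array mean of the silent families as a covariate). The changes at 2 h in irradiated and cisplatin-treated cells were 0.22 ± 0.09 and 0.08 ± 0.09. The mean over therapies, 0.19 ± 0.05, was called (adjusted p = 0.0123; background 9.28%), but not without the 4 arrays that stand apart (0.15, adjusted p = 0.0649). At 24 h the mean was 0.16 ± 0.05 (adjusted p = 0.0208; background 27.7%). It was made of 0.08 ± 0.09 without therapy and 0.02 ± 0.09 with radiation, neither called, and 0.37 ± 0.09 with cisplatin, which was called. The call of the 24 h mean was lost without replicate 3 of untreated cells (adjusted p = 0.0513) or of cisplatin (0.0579). It was also lost without replicate 2 of radiation with smoke extract (0.0538) or replicate 1 of cisplatin with smoke extract (0.0571). The silent families were 0.04 and 0.09 higher in these means, and with their array mean as a covariate the 24 h change of ATF3 was 0.10 (adjusted p = 0.0794). The part that this shift plays in the ATF3 values was not tested further.

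JUNB encodes a JUN-type partner that can restrain JUN and that responds to many cytokines. With smoke extract alone at 24 h it was lower, at 8.49, 8.49 and 8.43 against 8.86, 8.91 and 8.88 untreated, groups that did not overlap. The change was -0.41 ± 0.10, or 1.33-fold lower (adjusted p = 0.00349; background 16.1%), a call held without any 1 array. The untreated JUNB mean at 24 h, 8.88, exceeded the means of all other 24 h groups, which ran from 8.46 (cisplatin with nicotine) to 8.69 (radiation). Leaving out 1 array cannot test a high level shared by all 3 untreated arrays. At 2 h JUNB was 8.71, 8.76 and 8.69 untreated and 8.41, 8.19 and 8.56 with smoke extract, also without overlap. The change of -0.33 ± 0.10 was just outside the threshold (adjusted p = 0.0537; 0.0211 without replicate 3 of smoke extract and 0.0425 with the silent-family covariate). Groups without overlap in this direction made up 14.9% of all genes at 2 h and 15.3% at 24 h. In cisplatin-treated cells at 2 h JUNB was 8.50, 8.40 and 8.52 without and 8.87, 8.66 and 8.55 with smoke extract, groups that did not overlap (11.5% of genes in this direction), with a change of 0.22 ± 0.10 (adjusted p = 0.267). The interaction of smoke extract with cisplatin at 2 h was 0.55 ± 0.14, at an unadjusted p of 0.00038 and an adjusted p of 0.491, and JUNB was the 1 member at an unadjusted p under 0.05 there, where 0 of the 18417 genes were called (0%). In irradiated cells the smoke extract changes were -0.07 ± 0.10 at 2 h and -0.12 ± 0.10 at 24 h, and in cisplatin-treated cells at 24 h 0.07 ± 0.10. The interaction with cisplatin at 24 h was 0.48 ± 0.14 (adjusted p = 0.0904; 0.039 without the 4 arrays that stand apart). That interaction called 0 members, with 5 at an unadjusted p under 0.05 (background 0.152%). The interaction with radiation at 24 h also called 0 members, with JUNB the 1 at an unadjusted p under 0.05 (0.30 ± 0.14, adjusted p = 0.285; background 2.57%). The mean smoke extract effect on JUNB at 24 h, -0.15 ± 0.06 (adjusted p = 0.0479), lay just inside the threshold. Leaving out 1 of its 18 arrays ended it in 16 cases, all but replicate 3 of radiation and replicate 1 of cisplatin with smoke extract, with adjusted p-values from 0.00238 to 0.141. It was also lost with quantile normalization (0.101), the silent-family covariate (0.0724), all rows tested (0.0657), no intensity trend (0.0538), a fit on its own groups alone (0.0903) and without the 4 arrays that stand apart (0.0542).

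Radiation alone raised FOSL2 at 24 h, and the mean over pretreatments was raised at both times. At 24 h FOSL2 was 8.39, 8.46 and 8.59 untreated and 8.81, 9.06 and 8.74 after radiation, groups that did not overlap (18.8% of genes in this direction), with a change of 0.39 ± 0.08, or 1.31-fold (adjusted p = 0.000208; background 21%). It held without any 1 array, with changes from 0.30 to 0.45. At 2 h FOSL2 was 8.47, 8.49 and 8.38 after radiation against 8.20, 8.24 and 8.16, again without overlap (6.96% of genes in this direction), but the change of 0.25 ± 0.08 was not called (adjusted p = 0.274). Radiation alone at 2 h called 0 members, with 3 (FOSL1, FOSL2 and ATF3) at an unadjusted p under 0.05, and 0.304% of all genes. The FOSL1 change there was 0.25 ± 0.11 and the ATF3 change 0.19 ± 0.09. Over the 3 pretreatments the mean radiation effect on FOSL2 was 0.23 ± 0.05 at 2 h (adjusted p = 0.00163; background 1.35%) and 0.32 ± 0.05 at 24 h (adjusted p = 1.56e-07; background 32.5%), both called without any 1 array. At 24 h, 8 of the 9 irradiated arrays lay above all 9 without therapy.

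Averaged over pretreatments, radiation raised JUNB at 2 h and ATF3 at 24 h. The mean radiation effect at 2 h was 0.28 ± 0.06 for JUNB (adjusted p = 0.00367, called without any 1 array), and 7 of 9 irradiated arrays exceeded all 9 without therapy. JUNB means with radiation were 8.87 against 8.72 without pretreatment, 8.92 against 8.64 with nicotine and 8.79 against 8.39 with smoke extract. The 8.39 was the lowest JUNB mean of the 18 groups. Without pretreatment the arrays overlapped and JUNB was not called. For JUND, the steadily made JUN-type partner, the mean radiation effect was 0.19 ± 0.05 and missed the threshold (adjusted p = 0.0756), with 8 of 9 irradiated arrays above all those without therapy. FOSL1 also missed it, at 0.23 ± 0.07 (adjusted p = 0.0668). Leaving out replicate 2 of radiation with nicotine, or replicate 1 of radiation with smoke extract, brought JUND to an adjusted p of 0.047 or 0.0435. At 24 h the JUNB effect was -0.04 ± 0.06 and that of JUND -0.06 ± 0.05. The change of the radiation effect between the times was -0.34 ± 0.14 for JUNB (adjusted p = 0.122), the 1 member at an unadjusted p under 0.05, and 0 members were called there beside 13% of all genes. ATF3 was 6.21, 6.24 and 6.15 after radiation at 24 h against 5.93, 5.94 and 5.79 untreated, without overlap (18.8% of genes in this direction). Its change was 0.32 ± 0.09 (adjusted p = 0.00866; 0.0632 without replicate 3 of untreated cells; background 21%). Its mean over the pretreatments at 24 h was 0.22 ± 0.05 (adjusted p = 0.000757; background 32.5%), called without any 1 array. FOSL1 was not called with radiation at 24 h (0.22 ± 0.11, adjusted p = 0.185), unless replicate 3 of radiation was left out (0.35, adjusted p = 0.0282).

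Cisplatin at 1 uM changed little in the family. At 2 h it called 0 members, with 2 (FOS and JUNB) at an unadjusted p under 0.05, and 0.00543% of all genes. FOS was 7.14, 7.21 and 7.23 with cisplatin against 7.31, 8.21 and 8.51 untreated, groups that did not overlap (7.46% of genes in this direction), with a change of -0.82 ± 0.36. The lowest untreated array, at 7.31, lay near the highest treated one, at 7.23. At 24 h JUNB fell from 8.86, 8.91 and 8.88 to 8.43, 8.58 and 8.42, without overlap (12% of genes in this direction), a change of -0.41 ± 0.10 (adjusted p = 0.016; background 3.8%). That call was lost without replicate 2 or 3 of untreated cells (adjusted p = 0.0753 and 0.0576) or replicate 3 of cisplatin (0.0644). The same 3 untreated arrays served the 24 h smoke extract comparison, and their JUNB mean of 8.88 ranked 2 of the 18 groups. Over the pretreatments the mean cisplatin effect on JUNB at 24 h was -0.17 ± 0.06 (adjusted p = 0.0801; 0 members called, 1 at an unadjusted p under 0.05; background 5.03%), and it was called without replicate 3 of nicotine (0.0469) or replicate 1 of cisplatin with smoke extract (0.00555). The mean cisplatin effect at 2 h called 0 members, with 0 at an unadjusted p under 0.05 (background 0.0109%), and that of FOSL2 was -0.07 ± 0.05. The cisplatin effect at 24 h minus that at 2 h was called for 0 members, with 0 at an unadjusted p under 0.05 (background 0.141%).

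Nicotine alone called 0 members at 2 h (0 at an unadjusted p under 0.05; background 0%) and 0 at 24 h (1, JUNB, at an unadjusted p under 0.05; background 0.00543%). JUNB was 8.76, 8.60 and 8.57 with nicotine at 24 h against 8.86, 8.91 and 8.88, a change of -0.24 ± 0.10 (adjusted p = 0.759). For FOSL2 the 95% CI of the nicotine change was -0.12 to 0.20 at 2 h and -0.26 to 0.06 at 24 h, below the smoke extract change at 2 h. The mean nicotine effect called 0 members at 2 h and at 24 h, with 0 at an unadjusted p under 0.05 both times (backgrounds 0% and 5.21%). Added to cisplatin at 24 h nicotine called 0 members, with 1 (ATF3) at an unadjusted p under 0.05, beside 17.8% of all genes, and FOSL1 there was 0.22 ± 0.11 (adjusted p = 0.146; 0.033 without replicate 2 of cisplatin). Added to cisplatin at 2 h, and to radiation at 24 h, it called 0 members, with 0 at an unadjusted p under 0.05 (backgrounds 0% and 0.00543%). Added to radiation at 2 h it called 0 members and 0% of genes, but FOS and FOSB had unadjusted p-values of 0.0016 and 0.0052. FOS was 7.28, 7.38 and 7.35 with radiation alone and 9.40, 8.39 and 7.87 with nicotine as well, groups that did not overlap (3.95% of genes in this direction), with a change of 1.22 ± 0.36. FOSB was 6.52, 6.46 and 6.39 against 7.81, 7.06 and 6.82, also without overlap, with a change of 0.78 ± 0.26. Replicate 1 was the highest array of that group for both genes.

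**Figure D3:**
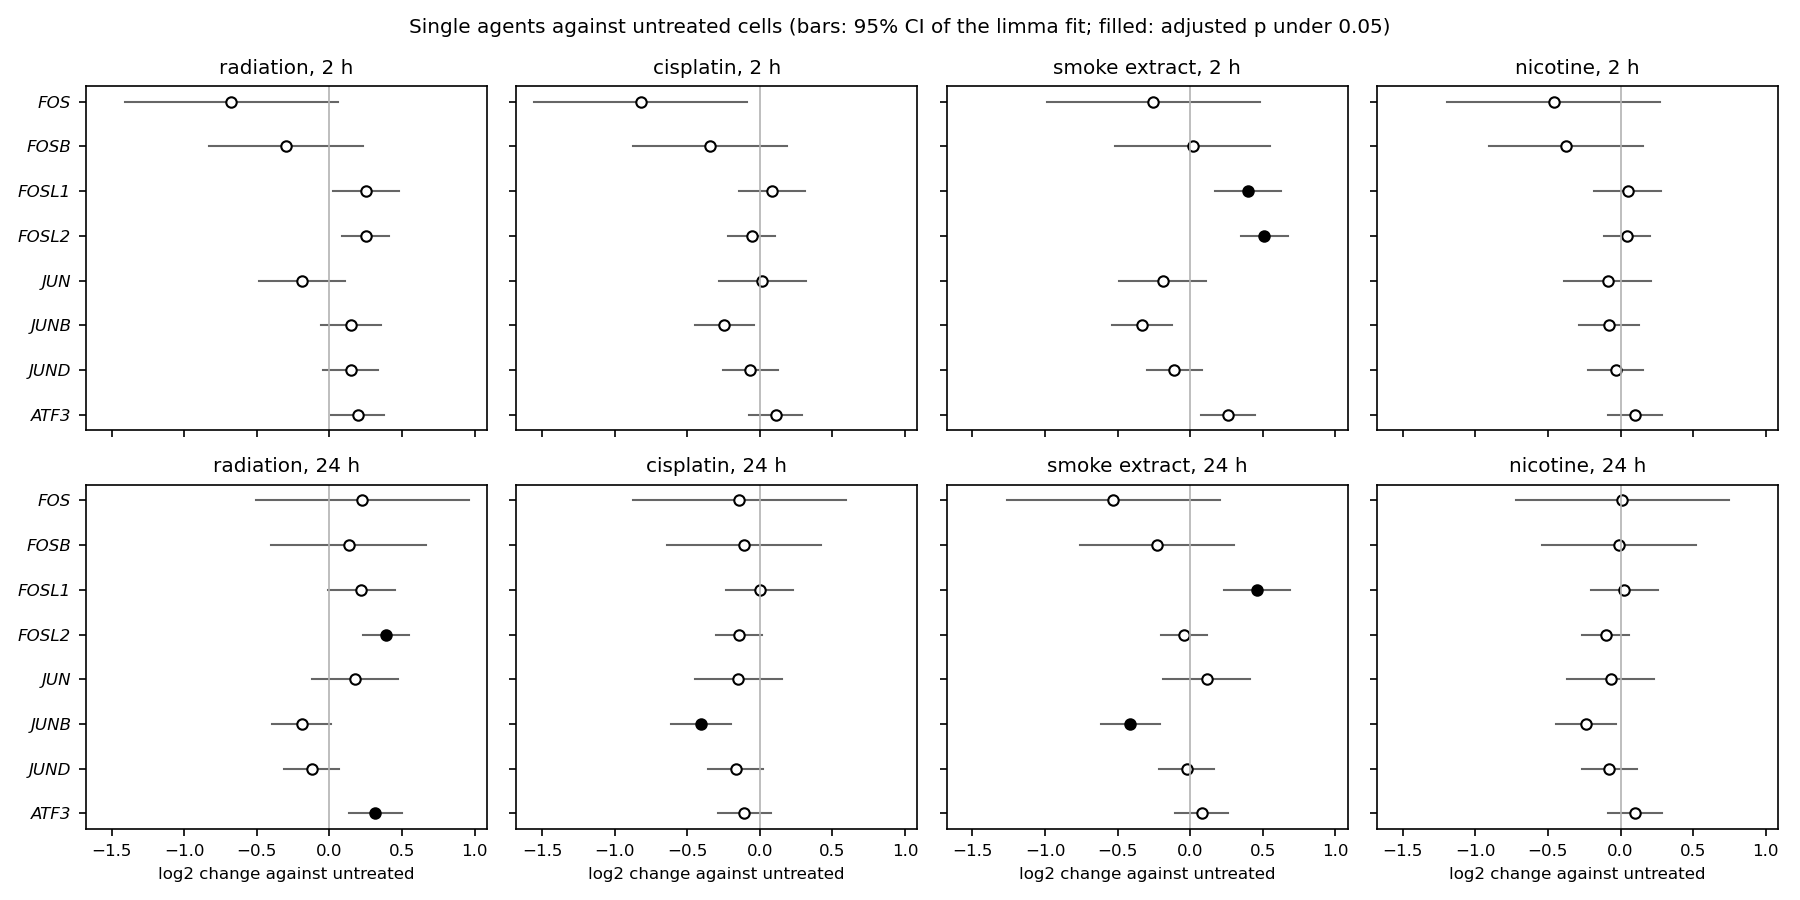
Log2 change of each member (x axis, bars 95% CI, filled where called) for radiation, cisplatin, smoke extract and nicotine alone against untreated cells at 2 h (top) and 24 h (bottom). FOSL1 and FOSL2 rose with smoke extract at 2 h, FOSL2 and ATF3 with radiation at 24 h, JUNB fell with cisplatin and with smoke extract at 24 h, and the intervals of FOS and FOSB are the widest. The panels of 1 time share the untreated arrays.

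The combination of cisplatin and smoke extract at 24 h called the most members of any pairwise comparison, 4 higher against cisplatin alone, where 28.6% of all genes were called and 14.6% were higher. They were FOSB, FOSL1, JUND and ATF3. FOSB, an activating FOS-type protein, went from 6.88, 6.69 and 6.20 to 8.18, 7.44 and 6.74, groups that overlapped, with a change of 0.86 ± 0.26 (adjusted p = 0.0148). JUND went from 8.51, 8.56 and 8.38 to 8.87, 8.79 and 8.60, without overlap (20.2% of genes in this direction), a change of 0.27 ± 0.09 (adjusted p = 0.0326). ATF3 went from 5.79, 5.87 and 5.68 to 6.27, 6.07 and 6.11, without overlap, a change of 0.37 ± 0.09 (adjusted p = 0.0031), the only 1 of the 4 called without any 1 array. FOS changed by 0.74 ± 0.36 (adjusted p = 0.114) and JUN by 0.35 ± 0.15 (adjusted p = 0.0688), and both were called without replicate 3 of cisplatin with smoke extract (0.0221 and 0.0223). The FOSB call was lost without replicate 3 of cisplatin (0.149) or replicate 1 of the combination (0.197). That of JUND was lost without replicate 1 or 3 of cisplatin (0.057 and 0.206) or replicate 1 or 2 of the combination (0.167 and 0.0722). The mean of the silent families was 0.24 higher in the combination than with cisplatin alone. With that mean as a covariate none of the 4 was called, with changes of 0.60 for FOSB (adjusted p = 0.21), 0.33 for FOSL1 (0.0907), 0.25 for JUND (0.152) and 0.21 for ATF3 (0.0997). The median change of the 8 members was 0.36, against 0.06 for all genes.

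FOS and FOSB differed from the rest of the family in how much replicates of 1 group varied. The residual SD within groups was 0.49 for FOS, above that of 99.96% of genes, and 0.35 for FOSB, above 99.6%, where the median gene had 0.14. JUN had 0.19, at the 88.1st percentile, whereas FOSL2 had 0.09, at the 11.7th. With smoke extract at 2 h, FOS was 7.11, 7.19 and 8.97, a range of 1.86, while with cisplatin at 2 h its range was 0.09. FOS and FOSB deviated in the same direction on most arrays but not on all. Replicate 1 of cisplatin with smoke extract at 2 h was 0.46 above its group mean in FOS and -0.16 from it in FOSB. Over the 54 arrays the deviations of FOS and FOSB from their group means had a Pearson r of 0.80 (0.82 over the 27 arrays at 2 h and 0.81 over the 27 at 24 h). FOS and JUN gave 0.58, JUNB and JUND 0.59, FOS and FOSL1 0.27, and FOS and FOSL2 -0.01. EGR1, an immediate early zinc finger factor outside AP-1, followed the same arrays, with 0.77 against FOS and 0.88 against FOSB. The genes on 1 array share an RNA sample and a hybridisation, and what lies behind these correlations was not tested. Pairwise changes of FOS and FOSB had wide intervals, with a 95% CI of -0.99 to 0.48 for FOS and -0.51 to 0.55 for FOSB with smoke extract at 2 h.

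**Figure D4:**
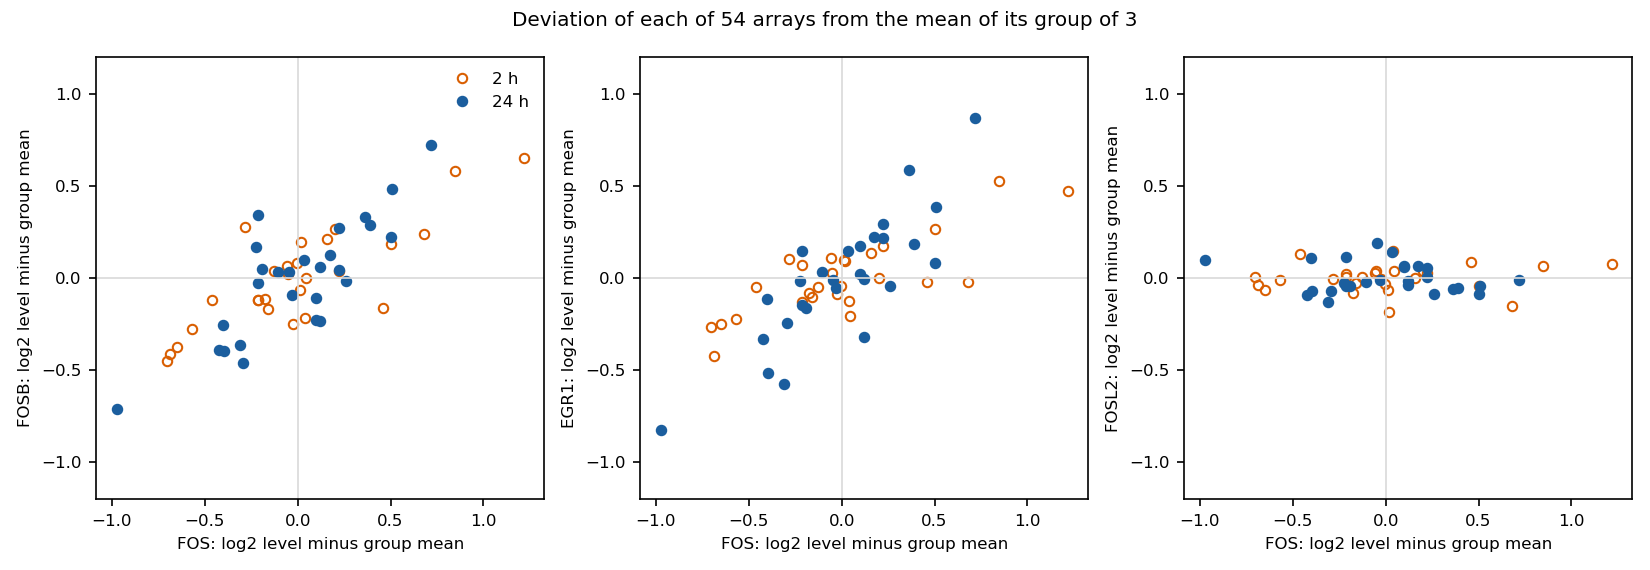
Deviation of each array from its group mean for FOS (x axis, log2) against FOSB, EGR1 and FOSL2 (y axes, log2), at 2 h (open) and 24 h (filled). FOSB (r 0.80) and EGR1 (r 0.77) follow FOS over the 54 arrays, and FOSL2 (r -0.01) does not.

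Levels of FOS, whose protein is a strong activator with a short life, ranged most widely between groups. At 2 h they were 8.01 ± 0.63 untreated, 7.55 ± 0.60 with nicotine, 7.76 ± 1.05 with smoke extract, 7.33 ± 0.05 with radiation, 8.56 ± 0.78 with radiation and nicotine, and 7.23 ± 0.22 with radiation and smoke extract. With cisplatin at 2 h they were 7.19 ± 0.05, with nicotine added 7.36 ± 0.14 and with smoke extract added 7.80 ± 0.40. At 24 h they were 7.54 ± 0.46 untreated, 7.55 ± 0.21 with nicotine, 7.01 ± 0.44 with smoke extract, 7.77 ± 0.34 with radiation, 7.24 ± 0.19 with radiation and nicotine, and 7.45 ± 0.34 with radiation and smoke extract. The highest mean at 24 h was with cisplatin and smoke extract (8.14 ± 0.87), and the lowest of all with cisplatin and nicotine (6.97 ± 0.19). Cisplatin alone at 24 h gave 7.40 ± 0.41. No pair of neighbours in this order was separated by its arrays.

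FOSB followed FOS over the groups (r = 0.83 over 18 group means). Its highest means were 7.45 ± 0.72 with cisplatin and smoke extract at 24 h, 7.23 ± 0.52 with radiation and nicotine at 2 h and 7.05 ± 0.24 with cisplatin and smoke extract at 2 h. Its lowest were 6.32 ± 0.30 with radiation and nicotine at 24 h, 6.38 ± 0.21 with nicotine at 2 h and 6.40 ± 0.21 with cisplatin and nicotine at 24 h. Untreated cells had 6.75 ± 0.39 at 2 h and 6.70 ± 0.24 at 24 h, and the other groups lay between 6.41 and 6.92. In cisplatin-treated cells at 2 h smoke extract gave 0.65 ± 0.26 more FOSB (adjusted p = 0.182), without overlap between 6.43, 6.60 and 6.19 and 6.89, 6.94 and 7.33.

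JUN, the JUN-type protein that gives AP-1 much of its activating power, had the smallest F of the family (1.47). Group means ran from 5.70 ± 0.26 with radiation and smoke extract at 2 h to 6.12 ± 0.28 with radiation and nicotine at 2 h, and untreated cells had 6.05 ± 0.23 at 2 h and 5.86 ± 0.05 at 24 h. The single-agent changes lay between -0.19 and 0.18, each with an SE of 0.15, and none was called. With smoke extract at 2 h JUN was 5.90, 5.50 and 6.18 against 5.79, 6.14 and 6.22 untreated, which overlapped. The probes of JUN lay in the range of the silent families, so its changes may be understated. JUND means ran from 8.46 ± 0.23 with radiation and nicotine at 24 h to 8.86 ± 0.20 with the same agents at 2 h. In untreated cells JUND was 8.63 ± 0.05 at 2 h and 8.65 ± 0.13 at 24 h. Its changes with a single agent lay between -0.17 and 0.15, with an SE of 0.09, and none was called.

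JUNB means ran from 8.39 ± 0.18 with smoke extract at 2 h to 8.92 ± 0.05 with radiation and nicotine at 2 h. Next to the top were untreated cells at 24 h (8.88 ± 0.03) and radiation at 2 h (8.87 ± 0.10), and next to the bottom cisplatin with nicotine at 2 h (8.44 ± 0.08) and 24 h (8.46 ± 0.10). ATF3 means ran from 5.78 ± 0.10 with cisplatin at 24 h to 6.25 ± 0.06 with radiation and smoke extract at 2 h, and the 3 highest groups had all been irradiated. FOSL1 means ran from 8.02 ± 0.11 with cisplatin and nicotine at 2 h to 8.77 ± 0.12 with radiation and smoke extract at 2 h. The 6 groups with smoke extract held the 6 highest FOSL1 means, from 8.51 to 8.77, and the 12 others ran up to 8.38.

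Among genes above the median level, those with the most similar pattern over the 18 group means were named for each member by Pearson r. FOSL2 was most like SGK1 (0.90), a kinase gene induced by stress and glucocorticoids, then IL6R (0.89) and APBB3 (0.85). ATF3 was also most like SGK1 (0.83), followed by SLC30A1, a zinc exporter (0.83), and FOSL2 itself (0.82). FOSL1 was most like MN1 (0.92), MNT (0.92) and GLCCI1 (0.92). FOSB was most like FOS (0.83), EGR1 (0.75) and NFKBIA (0.65), and FOS most like DEDD (0.62), SUGP1 (0.61) and EGR1 (0.58). JUNB gave CUEDC1 (0.77), ZC3H12A (0.77) and FAM3A (0.74), JUND gave CARD19, MRPL38 and KRT18 (0.73 to 0.76), and JUN gave TBC1D22A, SLFN5 and TMEM53 (0.66 to 0.67). FOSB lay below the median level and so was not among the genes searched, but its r with FOS was 0.83. For JUN, JUNB and JUND, and for FOS among the genes searched, the likeness was weaker. These are the highest of 9207 or 9208 genes searched and a description only.

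Other genes around AP-1 moved in both directions with smoke extract at 2 h. Of all genes 3.77% were called there, 1.74% as higher. Of 11 measured basic leucine zipper partners, 2 rose and 2 fell. The small MAF genes MAFF (0.63 ± 0.10) and MAFG (0.41 ± 0.11) rose, while JDP2, a repressor that pairs with JUN (-0.40 ± 0.09), and ATF7 (-0.51 ± 0.14) fell. None of 16 MAP kinase pathway genes was called, and of 9 measured genes of serum response and CREB factors MEF2A rose (0.73 ± 0.08) and CREB1 fell (-0.44 ± 0.08). Among 14 feedback genes, 2 rose and 4 fell (background 3.77%), with SPRED1, an inhibitor of RAS signalling, at 1.35 ± 0.12 and the phosphatases DUSP1 and DUSP6 at -1.15 ± 0.11 and -1.08 ± 0.10. Of 16 other immediate early genes, IER3 rose (0.99 ± 0.14) and NR4A1 (-1.04 ± 0.11) and KLF10 (-0.43 ± 0.07) fell. Median changes of these lists lay between -0.21 and 0.02, against -0.02 for all genes. At 24 h MAFG (0.89 ± 0.11) was higher and JDP2 (-0.42 ± 0.09) lower, and 3 of the 16 MAP kinase pathway genes rose and 1 fell, where the background was 16.1%.

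Of 22 measured genes known as AP-1 targets, 3 rose and 2 fell with smoke extract at 2 h (background 3.77%), and 5 rose and 2 fell at 24 h (background 16.1%). The collagenase gene MMP1, whose promoter carries a well-known AP-1 site, rose by 1.22 ± 0.13 at 2 h and by 4.10 ± 0.13 at 24 h. PLAU, the urokinase protease, rose by 0.62 ± 0.09 at 2 h, and CD44 by 0.43 ± 0.06 and LIF by 0.59 ± 0.10 at 24 h. IL6 (-1.43 ± 0.21) and CXCL8 (-0.52 ± 0.13) fell at 2 h, and PLAUR, the urokinase receptor, fell at 24 h (-0.81 ± 0.08). The median target changed by 0.03 at 2 h and 0.05 at 24 h, against -0.02 and 0.01 for all genes. With radiation at 24 h PLAU (0.65 ± 0.09) and CCND1 (0.21 ± 0.07) rose and CXCL8 (-0.56 ± 0.13) fell, 3 of the 22 targets beside 21% of all genes. With cisplatin at 24 h CXCL8 alone of the 22 was called (-1.23 ± 0.13; background 3.8%).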

How the data were processed

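RNA from 54 cultures of NCI-H460 was hybridised to 1-colour Affymetrix arrays, 3 per group. The authors' deposited values per transcript cluster were taken as log2 (range 0.89 to 13.81), since the base is not stated. Affymetrix Power Tools 1.15.0 is named per the submitters' processing notes, and the normalization is not given in the sources used here. No further normalization was applied. Of 33297 rows, 19460 had 1 gene symbol in GEO's platform annotation, 1754 several and 12083 none. The row with the highest mean was kept for each of 18417 symbols (769 had several rows), and each member was read from its single row.

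All 54 arrays entered 1 limma 3.58.1 fit in R 4.3.3 (lmFit and eBayes with an intensity trend, 18 group means, 36 residual degrees of freedom), with p-values adjusted by Benjamini-Hochberg over all 18417 genes and calls at 0.05. The fit was tested on simulated data. Groups and replicate numbers came from the labels, which call the replicates biological. The labels do not say which plate held a culture. If cultures of a group shared handling, the p-values measure only the spread between these samples. The number of arrays limits the precision, and no detection calls were used. The text names all 8 members, for each member the 3 genes most alike over the group means among genes above the median level, and up to 4 called genes per list and comparison. The members and lists were chosen with earlier results of these data known. Alternatives changed the normalization, scaling, variance model, genes tested, row per gene, samples in the fit and replicate block, or left out arrays. Replicates with the same number did not in general deviate together (median r 0.02), but single correlations ran from -0.73 to 0.73. Of 459 such correlations, 156 were above 0.1. Protein sequences and a promoter of FOSL1 were not analysed here.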

Additional observations from a re-analysis of the deposited data

Results flagged for a closer look

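The smoke extract effect on FOSL2 differed between the 2 harvest times. The change against untreated cells was 0.51 at 2 h and -0.04 at 24 h (log2), and the difference of -0.55 was tested in limma as a contrast of the 4 groups (adjusted p = 0.00187, with 3 arrays per group). Untreated FOSL2 was itself 0.28 higher at 24 h than at 2 h (adjusted p = 0.0506).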

How the results depend on the processing

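No member value that was called changed direction under any alternative run. Over 28 called values and the settings other than leaving out 1 array, 223 remained called and 23 were lost. The counts of members called that moved by more than 1.5 times were as follows, and the cause was not tested except where stated. With all rows tested, smoke extract at 2 h went from 2 to 1, alone and added to radiation, and without an intensity trend it went from 2 to 1 when added to radiation. With only genes above the median level, where FOSB, JUN and ATF3 are not tested, the mean radiation effect went from 2 to 4 at 2 h and from 2 to 1 at 24 h. Radiation at 24 h went from 2 to 1 and smoke extract added to cisplatin at 24 h from 4 to 2. The mean cisplatin effect at 24 h, smoke extract added to radiation at 24 h and untreated cells over time each went from 0 to 1. With each comparison fitted on its own groups alone, which leaves fewer samples, the mean radiation effect at 2 h went from 2 to 4. Radiation at 2 h, the change of the radiation effect with time and untreated cells over time went from 0 to 1. Smoke extract added to cisplatin at 24 h went from 4 to 1, and smoke extract against nicotine from 1 to 2 at 2 h and from 1 to 0 at 24 h. With quantile normalization, smoke extract added to radiation at 2 h went from 2 to 1 and untreated cells over time from 0 to 1. With the silent-family covariate, the mean smoke extract effect at 24 h went from 3 to 1, smoke extract added to cisplatin at 24 h from 4 to 0, smoke extract added to radiation at 24 h from 0 to 1, smoke extract at 2 h from 2 to 4 and untreated cells over time from 0 to 1. Without the 4 arrays that stand apart, an alternative chosen after seeing the data, smoke extract added to cisplatin at 2 h went from 2 to 1, its interaction with cisplatin at 24 h from 0 to 1 and untreated cells over time from 0 to 1. Smaller moves included the F test (7 to 6), the mean smoke extract effect at 24 h (3 to 2) and smoke extract added to cisplatin at 24 h (4 to 5) with quantile normalization. Without the 4 arrays the mean smoke extract effect at 2 h went from 3 to 2 with the loss of ATF3, JUNB joined smoke extract at 2 h (2 to 3), and FOSL1 joined the mean radiation effects at both times (2 to 3).

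With 1 array left out in turn, the counts ran from 1 to 2 for smoke extract at 2 h, alone, added to radiation and added to cisplatin, from 1 to 3 for radiation at 24 h and for the mean smoke extract effect at 24 h, and from 1 to 6 for smoke extract added to cisplatin at 24 h. They ran from 0 to 1 for cisplatin at 24 h, its mean effect, smoke extract against nicotine, smoke extract added to radiation and nicotine added to cisplatin, all at 24 h. The replicate numbers showed no general pairing of the samples. With the replicate block the members called stayed at 2 for smoke extract at 2 h and 7 in the F test, and no count of members moved. Over all genes the interaction of smoke extract with cisplatin at 24 h went from 28 to 75 genes with the block. Low signal over background limits what can be said of JUN, ATF3 and FOSB.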
